A study of Mus musculus with 14 samples.

Results

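The microRNAs (miRs) known as markers of white blood cells, mmu-miR-142-3p, mmu-miR-142-5p, mmu-miR-150, mmu-miR-155 and mmu-miR-223, were followed in the left ventricle (LV) of each mouse. They were chosen by name, are written below without the prefix for mouse, and all 5 were among the 520 mouse miRs that could be tested. LV RNA of 14 male C57Bl/6 mice aged 3 to 4 months was hybridized to single-channel arrays, with 1 array per mouse. The HF+E2 group (n = 5) had transverse aortic constriction (TAC), reached heart failure (HF) 6 to 8 weeks later and then received estradiol at 0.03 mg/kg per day from a pellet that releases the hormone for 10 days. The HF group (n = 5) had TAC and was studied once HF was reached, and the sham group (n = 4) had the surgery without the constriction. The labels mention no pellet in the HF mice, so that estradiol, the pellet and the later time after TAC cannot be told apart.

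TAC narrows the aorta, and the LV that pumps against it thickens, dilates and fails while leukocytes enter the muscle. The miR-142 arms are made in nearly all cells of the blood lineage and are close to absent elsewhere, which makes them a general label of leukocytes. miR-223 belongs to neutrophils, monocytes and their precursors and restrains their activation. miR-150 is abundant in mature B, T and natural killer lymphocytes, where it represses the transcription factor Myb, and miR-155 is induced when macrophages and lymphocytes are activated, where it represses the inhibitors SHIP1 and SOCS1. In bulk LV RNA, fewer cells of a type and less miR per cell cannot be told apart, and leukocytes in the tissue cannot be told apart from blood left in its vessels.

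The mature sequences are shown because the arrays read these letters, and because they separate the members into families. Of the 5 members, 4 matched an entry of RefSeq (GRCm38.p6), and these 4 carry 4 distinct seeds, the bases 2 to 8 that pair with targets, given here in capitals from 5′ to 3′.
miR-142-3p: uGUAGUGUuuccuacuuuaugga
miR-142-5p: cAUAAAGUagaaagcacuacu
miR-155: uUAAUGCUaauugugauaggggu
miR-223: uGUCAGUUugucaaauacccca
Since a miR finds its targets mainly through the seed, miRs with different seeds have largely different targets. miR-142-3p (chr11:87756903-87756925, plus strand) and miR-142-5p (chr11:87756867-87756887, plus strand) are the opposite arms of 1 hairpin, the gene Mir142, which overlaps the annotated Mir142b. In the hairpin (chr11:87756864-87756927) the capitals mark the miR-142-5p arm first and the miR-142-3p arm after the loop.
Mir142 hairpin: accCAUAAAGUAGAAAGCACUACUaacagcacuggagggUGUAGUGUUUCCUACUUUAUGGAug
miR-155 (chr16:84714143-84714165, plus strand) lies within the long noncoding RNA gene Mir155hg, and miR-223 (chrX:96242884-96242905, plus strand) lies within the long noncoding RNA gene F630028O10Rik. All 5 probes are 2 joined copies of an antisense stretch of their miR. A copy has 20 bases for miR-142-5p and 22 for miR-155, short of the 21 and 23 bases of these miRs. The probe of miR-223 is shown to make clear what was measured.
probe of miR-223: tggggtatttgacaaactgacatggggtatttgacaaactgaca

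The values are the scaled log2 intensities of the authors, the mean of 3 spots on each array, and a level of one miR cannot be set against that of another because probes differ in brightness. All 70 member values (5 miRs in 14 mice) were above the detection threshold that the authors set from negative control probes, and none was saturated, with a highest spot of 23187 against a limit of 65000. The 3 spots of a probe differed by an SD of 0.09 log2 units in the median and 0.40 at most. miR-142-3p was dim, between 0.50 and 1.70 log2 units above the threshold, whereas the other members were between 4.22 and 8.90 above it.

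The labelled tissue was checked on its own miRs. The muscle miRs miR-1, miR-133a and miR-133b were saturated on every array, while miR-122 (liver), miR-124 and miR-9 (brain) and miR-200b (epithelium) were not among the mouse miRs that the authors kept. Of the 5 miRs of other tissues, only the epithelial miR-141 was kept. It was called lower in HF than in sham (-1.01, SE 0.16, limma adjusted p = 0.00315) and higher in HF+E2 than in HF (0.59, SE 0.18, limma adjusted p = 0.0419). These values are near background. miR-141 averaged 5.64 in HF+E2, 5.04 in HF and 6.06 in sham, where the detection thresholds averaged 5.65, 5.21 and 5.64. The arrays of the groups differed in brightness: the constant that the authors added to each array lay between -0.62 and 0.51 in HF+E2, between -0.74 and -0.14 in HF and between 0.10 and 0.46 in sham. After scaling, the negative controls averaged 4.54 to 4.78 in HF+E2, 3.70 to 4.45 in HF and 4.39 to 4.85 in sham. By the codes in the array names, the 4 sham arrays form a code group that holds no other group, so that group and code cannot be told apart in a comparison with sham. HF+E2 1, at -0.62, stood apart from the other HF+E2 arrays (0.23 to 0.51) and shared a second code in its array name with HF 2. Without these 2 arrays, miR-142-5p (0.77) and miR-223 (0.62) were still called in HF over sham, and no member was called in the other comparisons, an alternative added after seeing the data. The part of brightness in the results was not tested beyond the alternatives given beside them.

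To ask whether leukocyte miRs differed in the failing LV, HF was compared with sham. miR-142-5p and miR-223 were higher in HF, by 1.63-fold and 1.57-fold, while miR-142-3p, miR-150 and miR-155 did not pass the test. The 2 that rose are 1 of the 2 miR-142 arms and the miR of neutrophils and monocytes, and the lymphocyte miR-150 and the activation-induced miR-155 had averages slightly below sham. To be called, a miR needed a limma adjusted p below 0.05 together with a log2 fold change beyond 0.5 in size. By that rule 2 of 5 members were called higher and 0 lower, against 26.7% of all tested miRs called, 8.46% higher and 18.3% lower. Without miRs that were saturated on any of these arrays, 39 of 479 were called higher and 59 lower. The median log2 fold change was 0.15 over the members and -0.13 over all tested miRs.

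**Figure D1:**
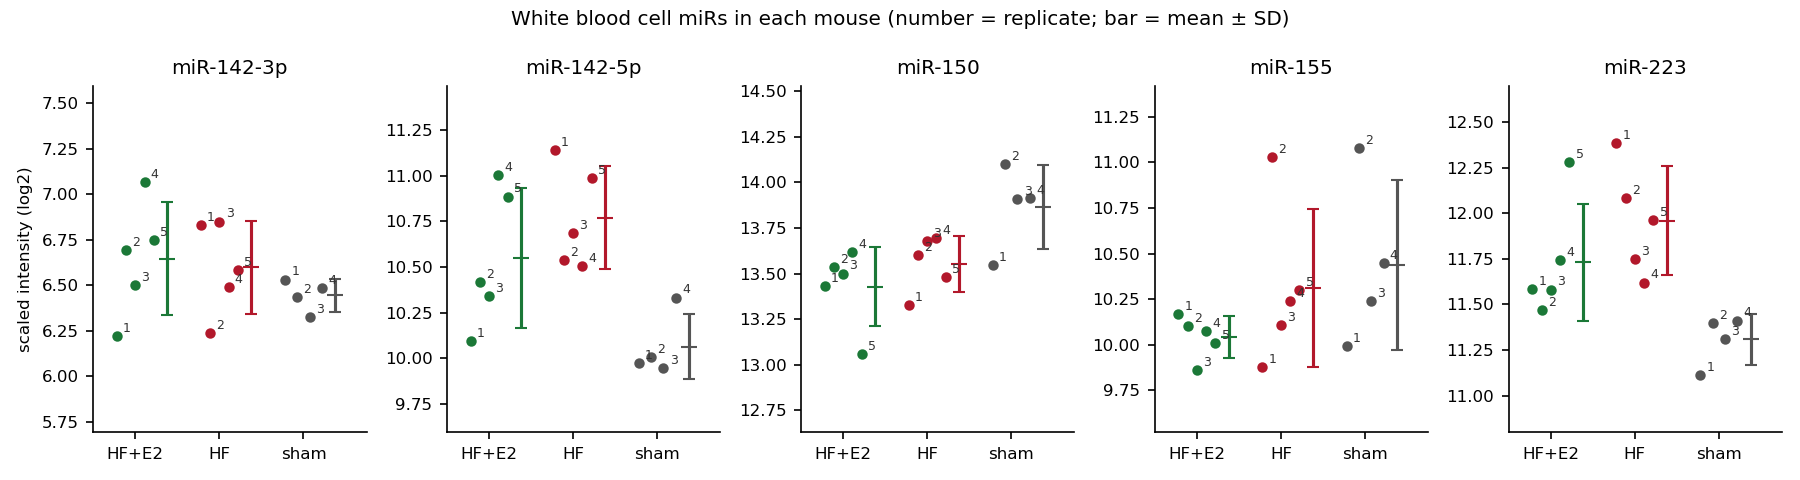
Scaled intensity (log2) of each member in each mouse, with HF+E2, HF and sham from left to right, a point per mouse with its replicate number, and a bar for the mean ± SD (n = 5, 5 and 4). The 5 HF mice lie above all 4 sham mice for miR-142-5p (10.50 to 11.14 in HF, 9.95 to 10.33 in sham) and miR-223 (11.62 to 12.38 in HF, 11.11 to 11.41 in sham), and the groups overlap for the other members.

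For miR-142-5p, the 5 HF mice had 11.14, 10.54, 10.69, 10.50 and 10.99 and the 4 sham mice had 9.97, 10.00, 9.95 and 10.33 on the scaled log2 scale. The groups did not overlap, with HF 1 and HF 5 highest and sham 4 standing above the other sham mice. The means were 10.77 ± 0.28 in HF and 10.06 ± 0.18 in sham (SD, n = 5 and 4), a log2 fold change of 0.71 (SE 0.17, limma adjusted p = 0.00927). The exact permutation test, two-sided, gave p = 0.0159, the smallest that 5 against 4 mice allow.

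For miR-223, the HF mice had 12.38, 12.08, 11.75, 11.62 and 11.96 and the sham mice had 11.11, 11.40, 11.31 and 11.41. Again every HF mouse was above every sham mouse, and HF 1 was the highest in both miRs. The means were 11.96 ± 0.30 in HF and 11.31 ± 0.14 in sham (SD), a log2 fold change of 0.65 (SE 0.17, limma adjusted p = 0.0137, exact permutation p = 0.0159). Of all tested miRs, 21.5% did not overlap between HF and sham, 7.88% being higher in HF and 13.7% lower. By log2 fold change, miR-142-5p ranked 31 and miR-223 ranked 35 from the top among 520 miRs. The call of miR-223 was lost when the arrays were quantile normalized, with a log2 fold change of 0.57 (limma adjusted p = 0.0791) from the scaled values and 0.61 (adjusted p = 0.0972) from the raw intensities, while that of miR-142-5p was kept in all 25 alternatives, with log2 fold changes between 0.59 and 1.49.

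miR-150 ran the other way without passing the test. It had 13.33, 13.60, 13.68, 13.69 and 13.48 in HF mice and 13.54, 14.10, 13.91 and 13.91 in sham mice. The overlap came from sham 1, which was lower than the other sham mice and lay within the HF values. The log2 fold change was -0.31 (SE 0.15, limma adjusted p = 0.132, exact permutation p = 0.0635). Without sham 1 it was -0.42 with a limma adjusted p of 0.0389, a change still below the required 0.5. miR-150*, the opposite arm of its hairpin, was within 0.72 log2 units of the detection threshold in HF and sham, and its value of -0.29 (SE 0.16, limma adjusted p = 0.169) is near background.

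miR-155 varied more between mice of a group than between the groups. It had 9.88, 11.03, 10.11, 10.24 and 10.30 in HF mice and 9.99, 11.08, 10.24 and 10.45 in sham mice. HF 2 and sham 2 stood high in their groups, and the remaining values of both groups were intermixed. The log2 fold change was -0.13 (SE 0.26, limma adjusted p = 0.749, exact permutation p = 0.619), and without sham 2 it turned to 0.08.

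miR-142-3p, the dim arm of the miR-142 hairpin, had 6.83, 6.24, 6.85, 6.49 and 6.58 in HF mice and 6.53, 6.44, 6.33 and 6.49 in sham mice. The HF mice spread on both sides of the sham mice, with 3 of them above all sham mice. The log2 fold change was 0.15 (SE 0.15, limma adjusted p = 0.494, exact permutation p = 0.286). When the negative controls were subtracted from each array, it was 0.45 (limma adjusted p = 0.127).

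The direction of miR-150 and miR-155 depended on the scaling of the arrays. With no scaling, the median log2 fold change of all tested miRs, HF over sham, moved to 0.66, and all 5 members were positive, with 1.49 for miR-142-5p, 1.44 for miR-223, 0.94 for miR-142-3p (called there, limma adjusted p = 0.000914, as were 244 of 520 miRs), 0.66 for miR-155 and 0.47 for miR-150. With no scaling, miR-150 had a limma adjusted p of 0.0293 and missed only the required size of 0.5. Relative to the unscaled median of all tested miRs, miR-142-5p was at 0.83 and miR-223 at 0.78, miR-142-3p was at 0.28, miR-155 was at -0.00 and miR-150 was at -0.18.

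**Figure D2:**
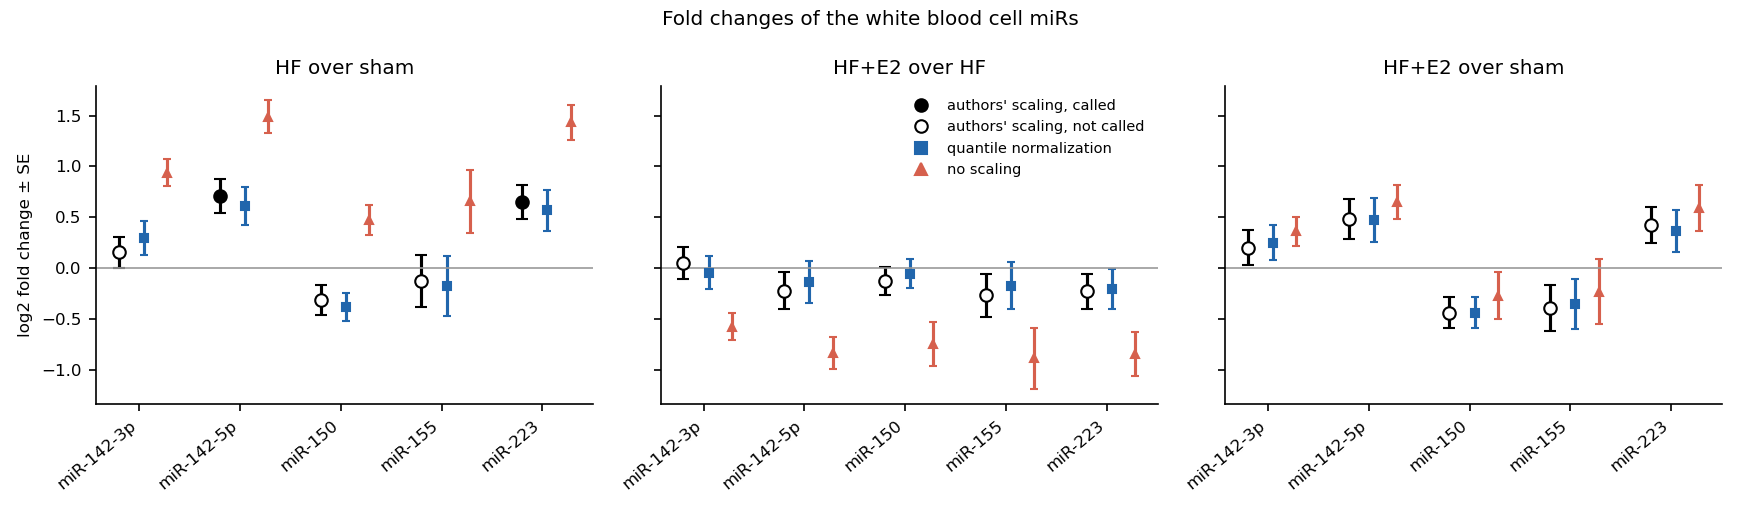
Log2 fold change ± SE of each member (y axis) in the comparisons HF over sham, HF+E2 over HF and HF+E2 over sham, with circles for the authors' scaling (filled where called), squares for quantile normalization of the scaled values and triangles for no scaling. With no scaling all members shift together, up in HF over sham (0.47 to 1.49) and down in HF+E2 over HF (-0.58 to -0.89), and in HF over sham miR-142-5p and miR-223 stay above the others under each of the 3 treatments of the arrays.

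In a difference between 2 members on the same array, the constant that scales the array cancels, although quantile normalization can still move it. The level of such a difference reflects the probes, but its change between groups can be compared. miR-142-5p minus miR-150 was -2.19, -3.06, -2.99, -3.19 and -2.49 in HF mice and -3.57, -4.09, -3.96 and -3.58 in sham mice. No HF mouse fell among the sham mice, and the change was 1.02 (exact permutation p = 0.0159, adjusted p = 0.0794 over the 10 pairs of members). miR-150 minus miR-223 ranged from 0.94 to 2.07 in HF and from 2.43 to 2.70 in sham, a change of -0.96 without overlap (exact permutation p = 0.0159, adjusted p = 0.0794). miR-142-5p and miR-223 moved side by side, with a change of their difference of 0.06 (exact permutation p = 0.683). The remaining pairs had adjusted p between 0.106 and 0.564, and 0 of 10 pairs passed 0.05 after adjustment, against 4 at an unadjusted exact permutation p. The exact p of 0.0159 is the smallest that 5 against 4 mice allow, and the pairs at this value had an adjusted p of 0.0794. The count of 0 therefore does not show that the members changed alike.

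**Figure D3:**
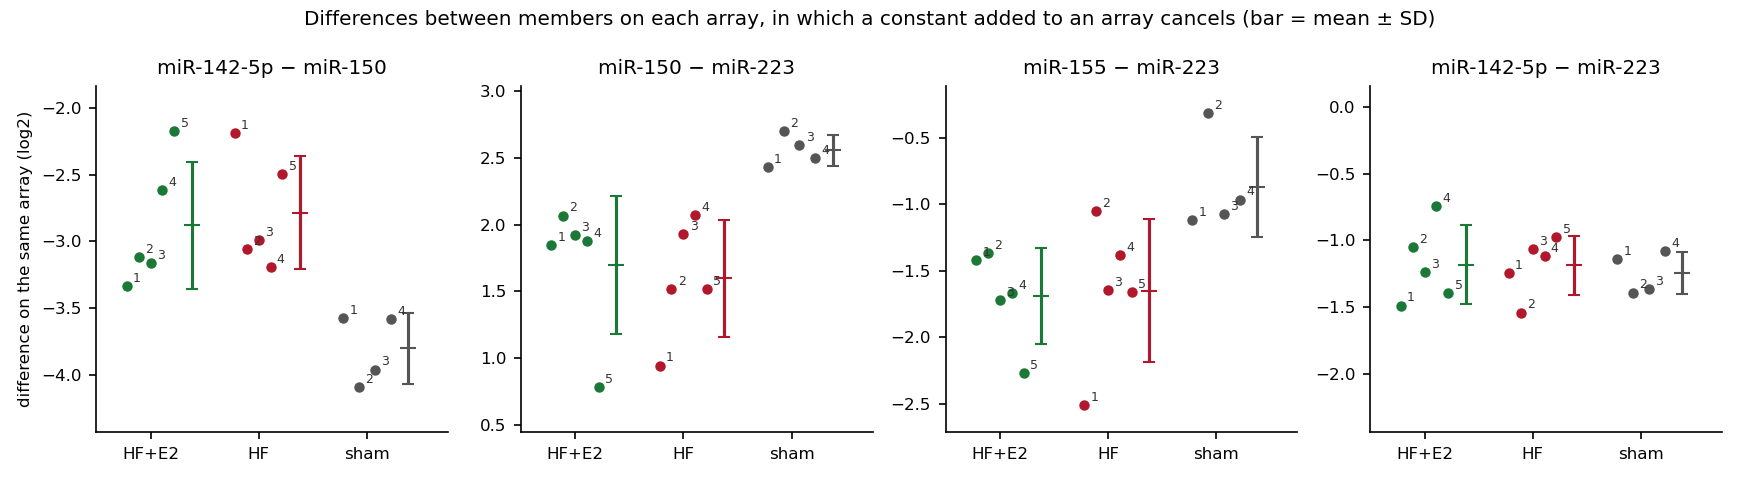
Difference between 2 members on the same array (log2, y axis) in HF+E2, HF and sham mice from left to right, with a point per mouse and a bar for the mean ± SD. miR-142-5p minus miR-150 was higher, and miR-150 minus miR-223 lower, in every HF+E2 and HF mouse than in any sham mouse, while the difference between miR-142-5p and miR-223 averaged -1.18 in HF+E2, -1.19 in HF and -1.24 in sham.

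HF+E2 was then compared with HF to ask whether the members differed after estradiol. None of the 5 members was called (0 higher, 0 lower), against 12.1% of all tested miRs called, 11.2% higher and 0.962% lower, and limma gave 0 members at an unadjusted p under 0.05, with an exact permutation p of 0.183 at the lowest. miR-142-5p had 10.09, 10.42, 10.34, 11.00 and 10.89 in HF+E2 mice. These values reached into both other groups, where HF+E2 1 lay within the sham values and HF+E2 4 and 5 lay within the HF values. The mean was 10.55 ± 0.38 in HF+E2 against 10.77 ± 0.28 in HF (SD, n = 5 each), a log2 fold change of -0.22 (SE 0.18, limma adjusted p = 0.488, exact permutation p = 0.333).

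miR-223 had 11.58, 11.47, 11.58, 11.74 and 12.28 in HF+E2 mice. HF+E2 5 was as high as the upper HF mice, and the other 4 lay between 11.47 and 11.74, around the lowest HF mice. The log2 fold change of miR-223, HF+E2 over HF, was -0.23 (SE 0.17, limma adjusted p = 0.437). miR-150 changed by -0.13 (SE 0.14, limma adjusted p = 0.622) and miR-155 by -0.27 (SE 0.21, limma adjusted p = 0.475). miR-142-3p changed by 0.05 (SE 0.16, limma adjusted p = 0.890), and its sign turned in 8 of 26 alternatives. No member was without overlap between HF+E2 and HF, against 5.58% of all tested miRs, 4.04% higher and 1.54% lower. Differences between pairs of members changed by between -0.10 and 0.32, each overlapping, and the lowest adjusted exact permutation p was 0.794.

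One code group of arrays held both HF+E2 (3 mice) and HF (1 mouse). Within it, HF+E2 minus HF was -0.70 for miR-142-5p, -0.42 for miR-223, -0.26 for miR-155, -0.11 for miR-142-3p and 0.01 for miR-150. The 2 HF+E2 mice of the other code group, HF+E2 4 and 5, averaged 10.94 for miR-142-5p, against 10.28 in the 3 HF+E2 mice that shared a code group with HF 5. The part of the code group in this spread was not tested. With no scaling all 5 members were called lower, by -0.58 to -0.89 on the log2 scale, where the median of all tested miRs was -0.55 and 170 of 520 miRs were called lower and 0 higher.

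Against sham, with which HF was also compared, HF+E2 had 0 of 5 members called (8.46% of all tested miRs were called, 5.19% higher and 3.27% lower), and 3 members had an unadjusted limma p under 0.05. miR-223 was higher in every HF+E2 mouse than in any sham mouse, at 11.73 ± 0.32 in HF+E2 and 11.31 ± 0.14 in sham (SD). Its log2 fold change was 0.42 (SE 0.18, limma adjusted p = 0.163, exact permutation p = 0.0159), against 14% of all tested miRs without overlap between HF+E2 and sham, 6.54% higher and 7.5% lower. miR-142-5p was at 0.48 (SE 0.19, limma adjusted p = 0.139, exact permutation p = 0.0317), with 4 of 5 HF+E2 mice above all sham mice.

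miR-150 had 13.43, 13.54, 13.50, 13.62 and 13.06 in HF+E2 mice and averaged 13.43 ± 0.22 there against 13.87 ± 0.23 in sham (SD). All but sham 1 among the sham mice were above every HF+E2 mouse. The log2 fold change of miR-150 was -0.44 (SE 0.15, limma adjusted p = 0.0763, exact permutation p = 0.0317), and it was called without sham 1 (-0.54, limma adjusted p = 0.0310) and with array weights (-0.52, adjusted p = 0.0107). miR-155 was even among HF+E2 mice, at 10.17, 10.10, 9.86, 10.07 and 10.01, and changed by -0.40 (SE 0.23, limma adjusted p = 0.296). miR-142-3p had 6.22, 6.69, 6.50, 7.06 and 6.75 in HF+E2 mice and changed by 0.20 (SE 0.17, limma adjusted p = 0.510).

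In the differences on the same array, HF+E2 and sham did not overlap for 3 pairs. The change was 0.92 for miR-142-5p minus miR-150, -0.86 for miR-150 minus miR-223 and -0.82 for miR-155 minus miR-223, each with an exact permutation p of 0.0159 and an adjusted p of 0.0529 over 10 pairs. None passed 0.05 after adjustment. An exact p of 0.0159 is the smallest that 5 against 4 mice allow, so passing needed more than these 3 pairs at that value. The count of 0 therefore does not show that the members changed alike. Without HF+E2 1 there were 6 of 10 pairs that passed, with an adjusted p of 0.0476 at the lowest. The smallest exact p differs with the number of mice, so the counts cannot be set against each other.

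Ordered by mean level, miR-142-5p and miR-223 ran HF, HF+E2, sham, whereas miR-150 and miR-155 ran sham, HF, HF+E2. The difference between HF and HF+E2 was within the spread for each of them, and HF did not differ from sham in the test for miR-150 and miR-155. miR-142-3p averaged 6.65 ± 0.31 in HF+E2, 6.60 ± 0.26 in HF and 6.44 ± 0.09 in sham (SD), with no neighbours that differed beyond their spread.

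To ask whether the members varied together between mice, each value was taken as a deviation from the mean of its group. On the authors' scaled values, Pearson's r over 10 pairs in 14 mice ranged from -0.52 to 0.77 with a median of -0.00. On this scaling the members did not vary as a block. The highest was that of the 2 arms of the miR-142 hairpin, with r = 0.77 (permutation p = 0.00976, adjusted p = 0.0976 over 10 pairs) and Spearman's rho = 0.79 (permutation p = 0.0109). HF+E2 1 was lowest and HF+E2 4 highest in both arms, and without these 2 mice r was 0.58. miR-142-5p and miR-223 had r = 0.66 (permutation p = 0.0275, adjusted p = 0.137) and rho = 0.57 (permutation p = 0.0693), and r was 0.66 without HF+E2 4 and HF 1.

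The lymphocyte miR-150 was not aligned with the myeloid miR-223. Their r was -0.52 (permutation p = 0.0745, rho = -0.36, permutation p = 0.231) and -0.56 without HF+E2 5 and sham 1. HF+E2 5 and HF 1 had the highest miR-223 of their groups and the lowest miR-150. miR-150 and miR-155 had r = 0.49 (permutation p = 0.0888, rho = 0.38, permutation p = 0.211), and the other 6 pairs lay between -0.44 and 0.21. None of the 10 pairs passed 0.05 after adjustment. Each code group holds at most 4 arrays, too few for a correlation of its own. With no scaling, r ranged from 0.11 to 0.77 with a median of 0.41, so that the negative correlations depend on the scaling.

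**Figure D4:**
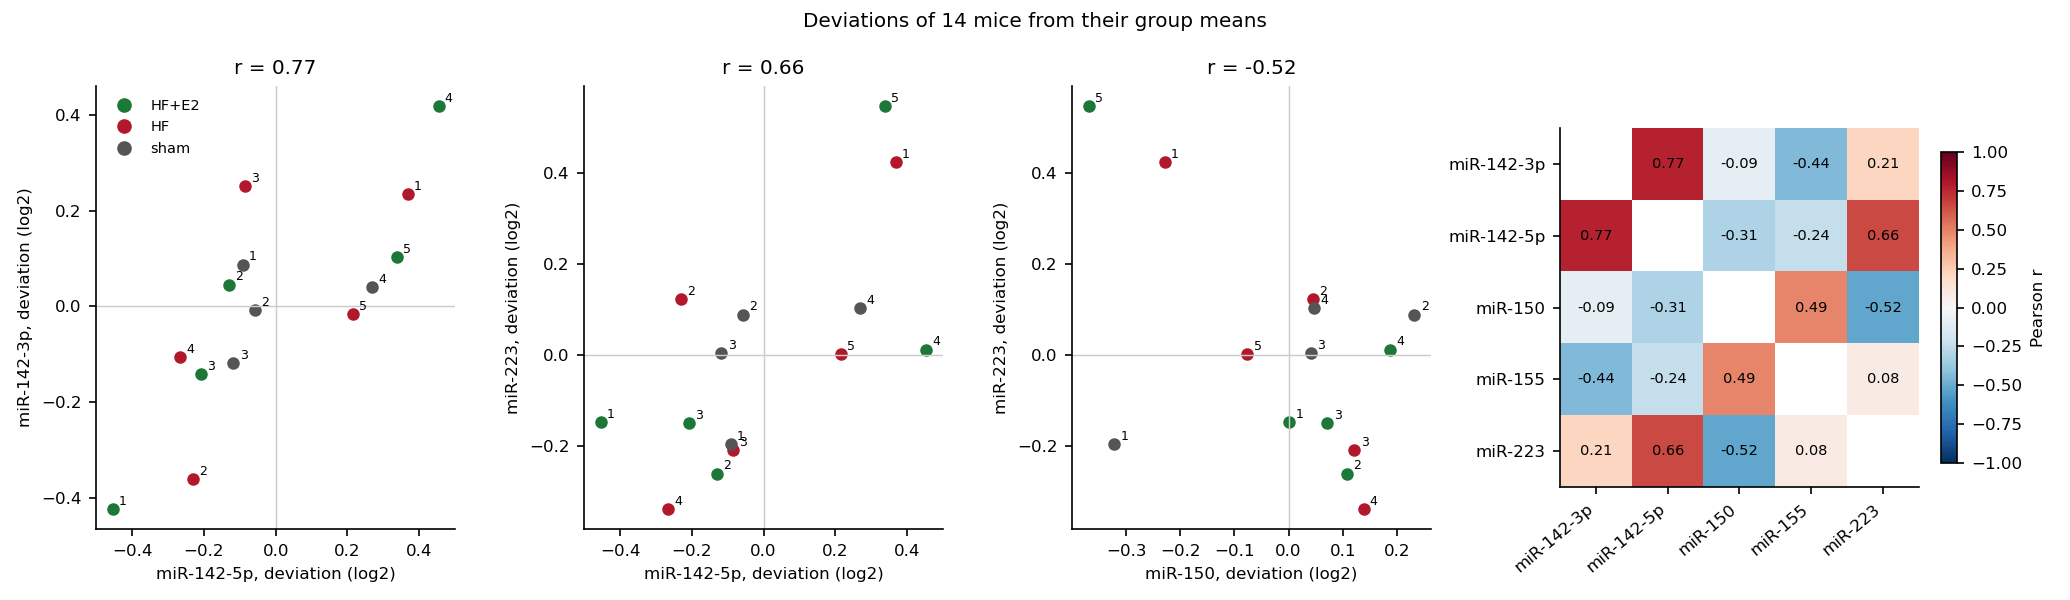
Deviations from the group mean (log2) of 14 mice for 3 pairs of members, coloured by group and numbered by replicate, and a map of Pearson's r for all 10 pairs. The 2 arms of miR-142 (r = 0.77) and miR-142-5p with miR-223 (r = 0.66) lean upward, and miR-150 with miR-223 (r = -0.52) leans downward.

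Among 403 other miRs that were above the threshold and unsaturated on all arrays, those most like the mean deviation of the members were miR-425* (r = 0.87), miR-362-5p (r = 0.85), miR-500 (r = 0.81), miR-99b* (r = 0.78) and miR-214* (r = 0.78) over 14 mice, all from the same arrays and scaling. For the members one at a time, 407 miRs could be ranked. miR-142-5p came at rank 3 for miR-142-3p, and miR-223 came at rank 13 for miR-142-5p. At the other end, miR-150 came at rank 402 for miR-223, and miR-155 came at rank 384 for miR-142-3p. miR-146a, induced by inflammatory signalling in leukocytes and other cells, was the closest to miR-223 at r = 0.90, a miR singled out after its values were seen. The closest to the other members were miR-19a for miR-142-3p (r = 0.83) and miR-20b for miR-142-5p (r = 0.85). For miR-150 it was miR-700* (r = 0.85), and for miR-155 it was miR-29a* (r = 0.81).

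The arrays also carry probes for the same miRs of other species, which offer a second reading. It comes from the same RNA, arrays and scaling, so it is not independent of the first. The probe of rat and macaque miR-223 had 11.09, 10.79, 10.49, 10.24 and 10.60 in HF mice and 9.88, 10.09, 10.16 and 10.31 in sham mice. Here 4 of 5 HF mice were above all sham mice, with a log2 fold change of 0.53 (1.45-fold, exact permutation p = 0.0317). HF+E2 over HF was -0.33 (exact permutation p = 0.206) and HF+E2 over sham was 0.20 (exact permutation p = 0.460). Its deviations followed those of the mouse probe with r = 0.96 (permutation p = 7.0e-05, rho = 0.89, permutation p = 0.00028), and r = 0.88 without HF+E2 5 and HF 1.

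The probe of human and macaque miR-155 had 8.73, 8.60, 8.15, 8.48 and 8.43 in HF+E2 mice, 8.43, 9.58, 8.44, 8.47 and 8.52 in HF mice and 9.00, 9.66, 8.82 and 8.91 in sham mice. HF 2 and sham 2 were again the highest of their groups, as with the mouse probe. HF+E2 over sham was -0.62 without overlap (exact permutation p = 0.0159), where 7.5% of the tested mouse miRs were lower without overlap. On the mouse probe these groups overlapped (-0.40, exact permutation p = 0.111). HF over sham was -0.41 on the probe of human and macaque miR-155 (exact permutation p = 0.254). The deviations of the 2 miR-155 probes had r = 0.89 (permutation p = 0.00338, rho = 0.81, permutation p = 0.00286), which was 0.59 without HF 2 and sham 2.

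**Figure D5:**
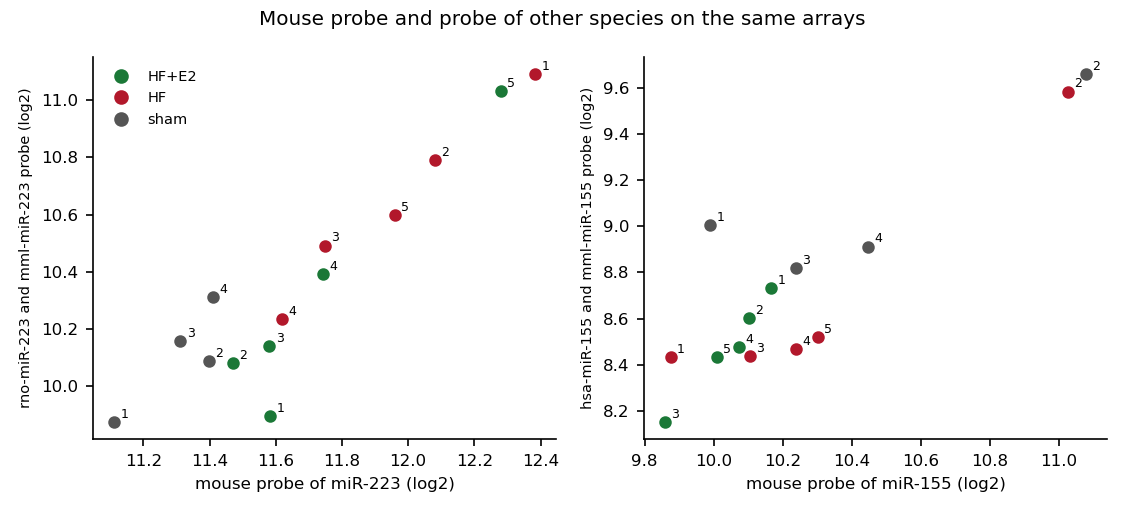
Scaled log2 intensity of the mouse probe (x axis) and of the probe of other species (y axis) for miR-223 and miR-155, with a point per mouse coloured by group. For miR-223 the mice keep nearly the same order on both probes (r = 0.96 of the deviations), and for miR-155 HF 2 and sham 2 lie apart from the rest on both.

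Beside the members, 9 of 11 other miRs of immune cells could be tested. In HF over sham 2 of the 9 were called higher and 0 lower, against 8.46% higher and 18.3% lower of all tested miRs. They were miR-146b at 1.22 (SE 0.16, limma adjusted p = 0.00103) and miR-146a at 0.73 (SE 0.19, adjusted p = 0.0167), and the median log2 fold change over the 9 was -0.02. HF+E2 over HF had 0 of 9 called, against 12.1% of all tested miRs. HF+E2 over sham had miR-146b higher, against 5.19% of all tested miRs called higher. The miR-181 family, miR-342-3p, miR-326 and miR-147 were not called in any of the 3 comparisons. For miR-326 only the required size of 0.5 was missed in 2 of them. It was at 0.42 in HF+E2 over HF (SE 0.13, limma adjusted p = 0.0419) and at 0.46 in HF+E2 over sham (SE 0.14, limma adjusted p = 0.0466).

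Markers of other cell types were read beside the members in HF over sham. A probe at the ceiling of the scanner carries only the constant of its array, and the constants differed by -0.78 between HF and sham. miR-451, which is needed for the maturation of red cells, was saturated on 11 of 14 arrays, so that its value, also -0.78, gives no direction, and the unsaturated red cell miR-144 was at -0.67 (SE 0.26, limma adjusted p = 0.0722). The muscle miRs miR-1, miR-133a and miR-133b were saturated on all arrays and likewise give no direction. The 2 unsaturated muscle miRs, miR-208a-3p (-0.83, SE 0.21, limma adjusted p = 0.0124) and miR-499 (-0.59, SE 0.14, limma adjusted p = 0.00867), were called lower in HF, as were 18.3% of all tested miRs. With no scaling, 0 of 520 miRs were called lower in HF than in sham and 244 higher, so that these 2 calls depend on the scaling. All 3 tested fibroblast and mesenchyme miRs were called higher, against 8.46% of all tested miRs, among them the unsaturated miR-21 (1.34, SE 0.17, limma adjusted p = 0.00103). Of these, miR-199a-5p was saturated on 3 of 14 arrays. The part of these other cell types in the changes of the members was not tested.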

How the data were processed

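Whole-heart powder was extracted per the labels, which name the LV as the source, and the low-molecular-weight RNA was labelled at its 3′ end and hybridized to miRBase arrays with 2576 probes. The authors deposited background-subtracted intensity values, 1 per spot with 3 spots per probe, and scaled log2 values made from the mean of the spots with a factor per array from its trimmed mean. Their notes count 524 mouse probes above the detection threshold, of which 520 were used. Deposited fold changes and p-values over the groups were not used. The scanner and spot software are not given in the sources used here.

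For HF over sham, limma 3.58.1 (R 4.3.3; lmFit, eBayes) was run on the arrays of both groups, and for the contrasts of HF+E2 on the 14 arrays together, with Benjamini-Hochberg adjustment over all tested miRs. The thresholds are those of the methods, whose log fold change was read as log2. Exact permutation tests (two-sided) and correlations (100000 permutations within groups) were run with SciPy 1.17.1. The correlations form 1 family of 10 pairs, with 2 more for the second probes. The number of arrays limits the precision. Each mouse is 1 sample. Replicate numbers are shared between groups. Same-numbered arrays had r between -0.30 and 0.46 in their deviations (13 pairs, median 0.13), and 7 of 14 arrays were closest to their own number. Whether this exceeds chance was not tested. The main fits used no pairing, and the replicate number as a block is given as an alternative.

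The members, lists and tests were chosen with earlier results of these data known. The miRs named are the members, their opposite arms, their probes of other species and list miRs on which a result turns. Also named are the 5 miRs most like the mean deviation of the members and the closest miR to each member. The fits were tested on simulated data. The alternatives were other scalings, background, spot and filter choices, other tests, blocks by array code and replicate number, and leaving out each array.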

Additional observations from a re-analysis of the deposited data

Results flagged for a closer look

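For miR-142-5p, sham 4 (10.3 on the scaled log2 scale) stood apart from the other 3 sham mice, which lay between 9.95 and 10.00, and it was still below every HF mouse. On the probe of human and macaque miR-155, HF 2 (9.58) stood apart from the other 4 HF mice, which lay between 8.43 and 8.52. On the probe of the opposite arm of human miR-155, HF+E2 1 (3.87) stood apart from the other HF+E2 mice. This probe was below the detection threshold in every mouse, and its 3 spots on HF+E2 1 had an SD of 1.09 log2 units. Of 42 groups examined, 3 had such a mouse, and chance alone marks about 1 in 20 groups. The probe of rat and macaque miR-223, outside the mouse measurement, showed a signal that was 0.53 log2 units higher in HF than in sham.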

How the results depend on the processing

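Of 380 alternative values of the members' fold changes, 356 kept their direction and their side of the threshold, 14 changed sign, 8 passed the threshold anew and 2 no longer did. In HF over sham, 2 members were called, and 1 with quantile normalization of the scaled values or of the raw intensities, and 3 with no scaling, which added miR-142-3p at 0.94. In HF+E2 over HF the count of 0 became 5 with no scaling. In HF+E2 over sham the count of 0 became 2 with array weights (miR-142-5p at 0.56 and miR-150 at -0.52). Leaving out 1 array at a time gave 2 to 2 members called in HF over sham, 0 to 0 in HF+E2 over HF and 0 to 1 in HF+E2 over sham, and a median correlation between -0.10 and 0.07. Signs changed as follows. In HF over sham, miR-150 was 0.47 and miR-155 was 0.66 with no scaling, and miR-155 was 0.048 with the 75th percentile of all probes and between -0.31 and 0.085 with 1 array left out. In HF+E2 over HF, miR-142-3p was -0.58 with no scaling, -0.058 with the 75th percentile of all probes, -0.045 and -0.063 with quantile normalization of scaled values and of raw intensities, -0.14 with negative controls subtracted, -0.11 with the code group as a block, and between -0.057 and 0.15 with 1 array left out, and miR-150 was 0.049 with quantile normalization of raw intensities and 0.010 with the code group as a block. For pairs of members, chosen as a check after seeing the data, 4 of 10 differed in HF+E2 over sham with the median of the spots, against 0 with their mean, and 0 to 6 with 1 array left out. These counts are bound by the smallest exact p that the number of mice allows. The check of pairing did not settle whether same-numbered arrays belong together, as 7 of 14 arrays were closest to their own number. With the replicate number as a block, the same 2 members were called in HF over sham (miR-142-5p at 0.65, adjusted p = 0.0301, and miR-223 at 0.65, adjusted p = 0.0353) and 0 in the other comparisons. The paper names no test for the arrays, and its general statistics name Student's t-test for 2 groups. That test called 2 members in HF over sham, 0 in HF+E2 over HF and 0 in HF+E2 over sham after Benjamini-Hochberg adjustment. At an unadjusted p below 0.05 in the t-test, 3, 0 and 2 members passed in the same comparisons. Apart from the changes in scaling, whose construction moves all miRs, the cause of these changes was not tested. miR-142-3p, near the detection threshold, is the member with the least signal over background.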
